A study of Mus musculus with 4 samples.

Results

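The distal end of mouse chromosome 4 holds Tas1r3, the gene deleted in the knockout mice, and its neighbours on the same stretch. Members were all gene symbols on chromosome 4 whose start, the lowest coordinate of the gene, lies at or beyond 135.9 Mb in the mm39 genome, with the transcripts of a symbol added together. The deposited table held 273 such symbols, of which 12 were left out by the rule, Tas1r3 among them. Of the 261 that remained, 257 reached 1 CPM, a read number scaled to a library total of 1000000, in at least 2 of the 4 libraries, and these 257 are described here out of 17745 genes tested in all. The 4 that did not reach it were AW011738, Arhgef19, Pdpn and Tnfrsf9. Only 2 members reached the level through the Tas1r3 KO libraries alone, and 3 through the WT libraries alone. The members span 20.49 Mb and the last starts 446.7 kb beyond Tas1r3. They comprise 124 genes on the plus strand and 133 on the minus strand, 97 of them with more than 1 listed transcript, and 30 are unnamed gene models. The comparison on the same chromosome was made with 846 tested genes that start before the boundary.

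RNA of whole testis was sequenced from 2 groups of male C57BL/6 mice, Tas1r3 KO (Tas1r3-/-) and WT (Tas1r3+/+), each with 2 samples. Both groups were on a normal diet for 18 weeks. The labels give neither the age of the mice nor whether the samples of a group came from separate animals, and the p-values below then reflect only how far these samples vary, which may be technical variation. Which strain's embryonic stem cells carried the original deletion, and how many generations of backcrossing followed, was found in none of the labels.

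Tas1r3 encodes the subunit that the sweet and the umami taste receptors have in common, and it is also transcribed in male germ cells. A deletion made in this gene is inherited together with the DNA that flanks it, and the closer a gene lies to the deletion, the more rarely recombination separates them. The distal part of mouse chromosome 4 is gene-dense, with many housekeeping genes that start head to head, and it also contains clusters of KRAB zinc finger genes, which encode repressors of transposable elements in rodents and primates, and of PRAME-like genes.

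Tas1r3 itself lies on chromosome 4 of mm39, at 155943726 to 155947811 on the minus strand. Its level was 1.34 and 0 CPM in Tas1r3 KO testes, against 13.8 and 20.5 CPM in WT testes, so the labels and the deleted gene match. The Tas1r3 KO libraries were shallower. From the value of 1 read in each library, 748615 and 597943 reads were estimated for Tas1r3 KO and 1719395 and 1807664 for WT, so 3 reads were worth 4.01 and 5.02 CPM in Tas1r3 KO and 1.74 and 1.66 CPM in WT. The WT libraries were 2.62 times as deep on average. All 6 spermatid markers were detected, with summed levels of 20850 and 31300 CPM in Tas1r3 KO and 24910 and 24850 CPM in WT. Summed meiotic markers were at 279 and 239.6 CPM in Tas1r3 KO and 220.9 and 183.8 CPM in WT, and 2 of the 4 genes had an unadjusted p under 0.05. The Leydig cell marker sum was 1484 and 1572 CPM in Tas1r3 KO and 1685 and 1704 CPM in WT, although 3 of the 4 markers had a positive log2 fold change and 1, Insl3, a negative one. Muscle and myoid markers were at 76.3 and 75.3 CPM in Tas1r3 KO and 92.5 and 101.9 CPM in WT. The summed Sertoli cell and macrophage markers overlapped between the genotypes, though C1qa and C1qb of the macrophage list are themselves members of the region. All 5 red blood cell markers had a negative log2 fold change, 1 of them with an unadjusted p under 0.05, and their sum was 35.8 and 53.9 CPM in Tas1r3 KO and 47.8 and 185.6 CPM in WT, where the second sample stood apart. Of 5 epididymis markers, 2 were found, and their sum was 1.34 and 0 CPM in Tas1r3 KO and 46.1 and 0 CPM in WT. The part of cell composition and depth in the differences below was not tested, and in whole tissue fewer cells of a type and less RNA per cell cannot be told apart.

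The sequences around the annotated starts of 3 members with small p-values are shown because Mxra8 and Ints11 flank Tas1r3 on either side and Kcnab2 has alternative starts. They are RefSeq windows of build GRCm38.p6, from 250 bases before to 50 bases after the start, read along the gene's strand. Capitals mark GC boxes (GGGCGG or its reverse complement CCGCCC) and CCAAT boxes (CCAAT or its reverse complement ATTGG). The Mxra8 window is chr4:155839430-155839729 on the plus strand, the Ints11 window chr4:155869317-155869616 on the plus strand, and the Kcnab2 window, at its outermost start, chr4:152477500-152477799 on the minus strand.
Mxra8: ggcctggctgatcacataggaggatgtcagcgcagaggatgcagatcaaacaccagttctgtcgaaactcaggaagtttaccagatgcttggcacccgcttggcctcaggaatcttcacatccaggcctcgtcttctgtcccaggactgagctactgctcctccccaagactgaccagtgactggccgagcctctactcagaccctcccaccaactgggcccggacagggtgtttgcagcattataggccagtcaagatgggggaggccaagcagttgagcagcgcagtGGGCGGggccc
Ints11: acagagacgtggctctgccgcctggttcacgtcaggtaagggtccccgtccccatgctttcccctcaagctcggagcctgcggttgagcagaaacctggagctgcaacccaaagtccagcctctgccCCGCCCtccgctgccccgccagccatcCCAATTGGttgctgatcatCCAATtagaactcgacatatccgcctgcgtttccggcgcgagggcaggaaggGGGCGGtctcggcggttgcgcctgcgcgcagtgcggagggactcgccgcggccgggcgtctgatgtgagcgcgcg
Kcnab2: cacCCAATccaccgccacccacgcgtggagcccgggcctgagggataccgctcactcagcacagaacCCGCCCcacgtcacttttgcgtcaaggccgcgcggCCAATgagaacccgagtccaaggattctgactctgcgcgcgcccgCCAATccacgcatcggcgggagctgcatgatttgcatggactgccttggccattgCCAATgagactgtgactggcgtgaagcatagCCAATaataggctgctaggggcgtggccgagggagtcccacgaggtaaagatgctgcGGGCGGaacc
The Mxra8 window holds 1 GC box, no CCAAT box and 8 CG dinucleotides, close to the median of 7 over all 32851 windows. That of Ints11 holds 2 GC boxes, 3 CCAAT boxes (2 of which overlap) and 30 CG dinucleotides, and 226 of its bases are also in the window of Cptp, which starts head to head with it. Kcnab2 has 2 GC boxes, 5 CCAAT boxes and 25 CG dinucleotides. None of these 3 windows has a TATA box (TATAAA or TTTATA). Over all windows 35.7% hold a GC box, 37.4% a CCAAT box and 13.6% a TATA box. A window was found for 216 of the 257 members, and a match of letters is a description of the sequence only.

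Small p-values were more frequent among distal chromosome 4 genes than elsewhere in the genome, in both directions, without any single member passing the test over all genes. limma on log2(CPM + 1) gave an unadjusted p under 0.05 for 31 of the 257 members (12.1%), against 833 of all 17745 tested genes (4.69%) and 37 of the 846 genes with a smaller start on chromosome 4 (4.37%). Among the members 16 were higher in Tas1r3 KO (1.37% of all genes were) and 15 lower (3.32% of all genes were). After Benjamini-Hochberg adjustment over all genes none of the members passed 0.05, where 1 gene of all tested did (0.00564%). The adjusted p of each of the 31 members was 0.942, and over all members it lay between 0.942 and 0.999, so differences of single members are given below with their standard errors (SE) and none passed the adjusted test. No test of the share itself was made.

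The share depended on the libraries more than on any other choice. Without Tas1r3 KO sample 1 it was 30.0% in the distal region and 21.2% on the rest of chromosome 4, and without Tas1r3 KO sample 2 it was 23.0% and 17.4%. Leaving out WT sample 1 gave 4.67% and 1.65%, and leaving out WT sample 2 gave 3.5% and 1.42%. In all 14 alternative settings tried, the distal share was above that on the rest of the chromosome, by 1.32 to 2.83 times, with 2.77 times in the fit reported here. Adjusted over all genes, 39 members passed without Tas1r3 KO sample 1 and 15 without Tas1r3 KO sample 2, where 1250 and 572 of all genes did, and none passed without either WT sample.

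Levels in the region did not move one way as a whole. The median log2 fold change over the members was -0.04, beside -0.03 for the rest of chromosome 4 and -0.05 over all genes, and 120 members had a positive and 137 a negative value. What was wider was the spread, with a median absolute log2 fold change of 0.31 in the distal region, 0.24 on the rest of chromosome 4 and 0.26 over all genes. The values of both Tas1r3 KO samples lay outside those of both WT samples for 101 members (39.3%), 47 higher and 54 lower. Over all tested genes the libraries separated in this way for 34.4%, with 15% higher and 19.4% lower in Tas1r3 KO, so this share lies close to the background. At least 2-fold differences without overlap were found for 32 members (12.5%), against 6.86% of all genes and 5.32% on the rest of chromosome 4.

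**Figure D1:**
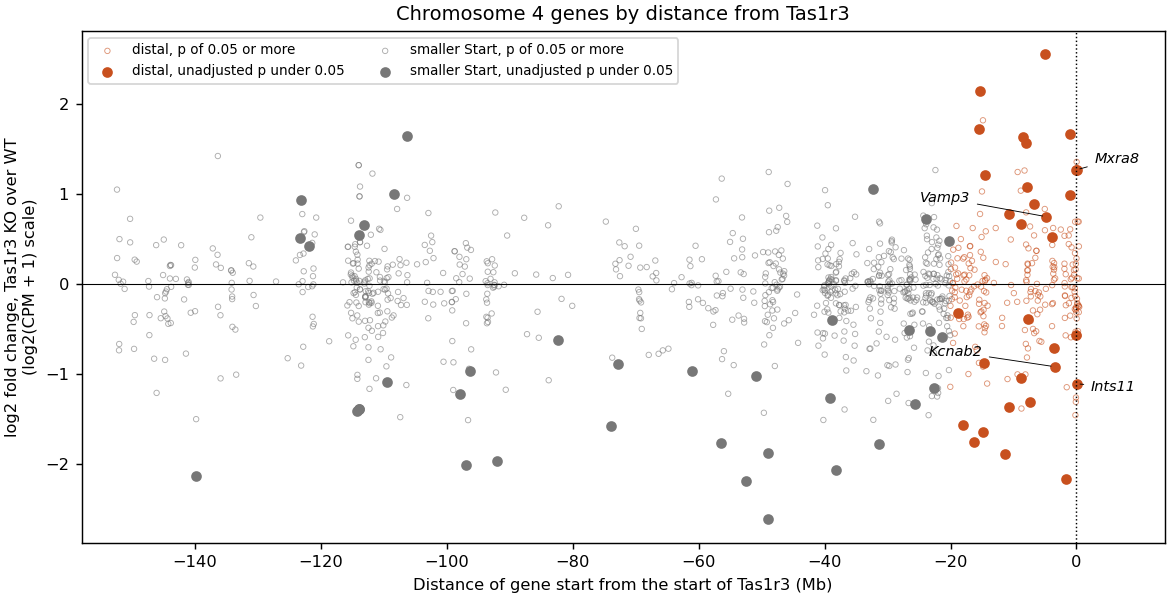
Each point is a tested gene of chromosome 4, placed by the distance of its start from the start of Tas1r3 (x axis, Mb) and its log2 fold change between Tas1r3 KO and WT, computed on log2(CPM + 1) (y axis). Orange marks the 257 distal members, grey the 846 genes with a smaller start, and filled points have an unadjusted limma p under 0.05. Filled points are 31 of the distal members and lie on both sides of 0.

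Small p-values were not confined to the genes next to Tas1r3. Within 1 Mb of it, 5 of 50 members (10%) had an unadjusted limma p under 0.05, and between 1 and 2 Mb it was 2 of 17 (11.8%). From 2 to 5 Mb the number was 4 of 22 (18.2%), from 5 to 10 Mb 9 of 58 (15.5%) and from 10 to 15 Mb 6 of 36 (16.7%). Beyond 15 Mb, up to the boundary, it was 5 of 74 (6.76%). The bins with smaller starts ranged from 3.6% to 6.76%. The bins are small, and the exact 95% binomial interval of the nearest, 3.33% to 21.8%, which takes genes as independent, holds the values of all other distal bins and also the 4.69% over all genes.

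**Figure D2:**
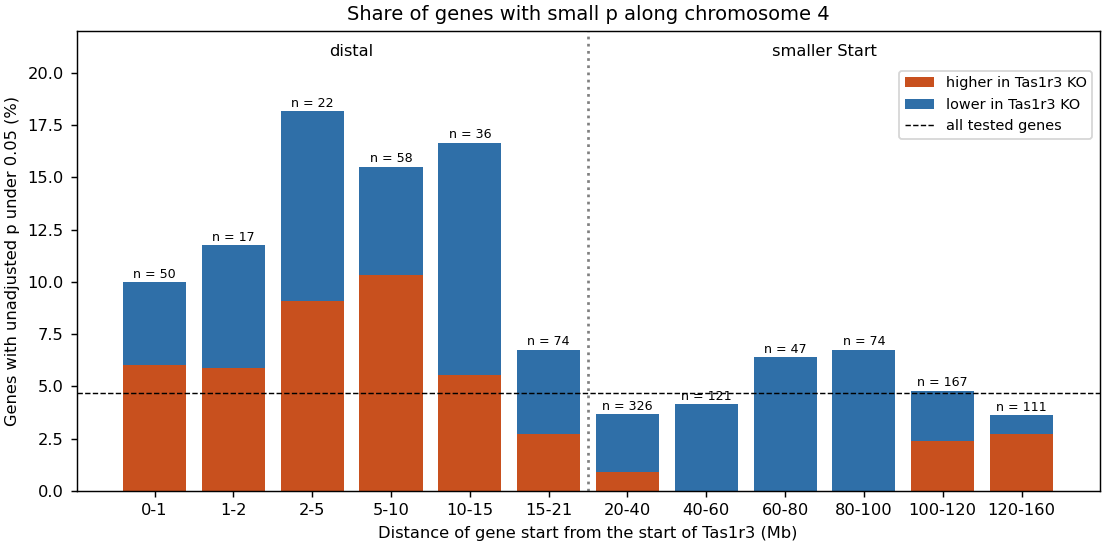
Percent of tested chromosome 4 genes with an unadjusted limma p under 0.05 (y axis), by distance of the gene start from Tas1r3 (x axis, Mb), split into genes higher and genes lower in Tas1r3 KO. Numbers give the genes in each bin, and the dashed line is the 4.69% over all tested genes; the bins from 2 to 15 Mb stand at 15.5% to 18.2%.

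At the edge of the region the genotypes overlapped. Just inside, E2f2, a cell cycle transcription factor, was at 0.09 and 5.002 CPM in Tas1r3 KO and 5.38 and 3.98 CPM in WT, and Asap3, a GTPase activator of Arf proteins, at 17.8 and 11.5 CPM in Tas1r3 KO and 17.1 and 17.1 CPM in WT. Just outside, a further E2f2 transcript that starts before the boundary was at 8.54 and 0.02 CPM in Tas1r3 KO and 6.28 and 1.92 CPM in WT. Id3, an inhibitor of basic helix-loop-helix factors, was at 4.66 and 3.34 CPM in Tas1r3 KO and 3.93 and 3.75 CPM in WT.

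Members at 5 CPM or more stood further from the background than those below. Among the 183 members with a mean of at least 5 CPM, 24 (13.1%) had an unadjusted p under 0.05, against 4.38% of such genes on the rest of chromosome 4 and 3.76% of all such genes. Below 5 CPM it was 7 of 74 members (9.46%), against 4.35% and 7.16%, which is close to the background. Of the 62 members at 50 CPM or more, 4 (6.45%) had such a p, against 3.37% and 2.57%, and Mxra8 was the single member of these with a 2-fold difference.

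None of the 10 named members with the highest mean CPM had an unadjusted p under 0.05. Actrt2, an actin-related protein of the sperm head, had the highest mean CPM, a value not adjusted for transcript length, with 777 and 838 CPM in Tas1r3 KO and 943 and 926 CPM in WT. Both Tas1r3 KO samples were lower than both WT samples, with a log2 fold change of -0.21 (SE 0.12). Acot7, an acyl-CoA thioesterase, was at 761 and 673 CPM in Tas1r3 KO and 675 and 646 CPM in WT. Slc2a5, the fructose transporter GLUT5, was at 715 and 554 CPM in Tas1r3 KO and 676 and 707 CPM in WT. Ttll10, which adds glycine chains to proteins, was at 450 and 396 CPM in Tas1r3 KO, below 488 and 499 CPM in WT, by a log2 fold change of -0.22 (SE 0.13). Chd5, a chromatin remodeller needed for the packaging of sperm DNA in mice, was at 505 and 396 CPM in Tas1r3 KO and 360 and 427 CPM in WT. Ubr4, Eif4g3, Ubxn10, Fhad1 and Luzp1 likewise overlapped between the genotypes. The unnamed model 1700013G24Rik, picked after its values were seen, lies in the same range of levels, at 450 and 425 CPM in Tas1r3 KO and 533 and 559 CPM in WT. It was lower in both Tas1r3 KO samples by a log2 fold change of -0.32 (SE 0.12), with an unadjusted limma p under 0.05.

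Within 200 kb of Tas1r3 there are 22 members, and 4 of them had an unadjusted p under 0.05, 2 higher and 2 lower in Tas1r3 KO. Such a p was found for 12.1% of all members and 4.69% of all tested genes. The 4 include Mxra8 and Ints11, which were given with the rule for the region. Mxra8, a cell-surface adhesion protein with immunoglobulin domains, starts 19.6 kb before Tas1r3. It was at 93.5 and 76.2 CPM in Tas1r3 KO, against 36.0 and 32.9 CPM in WT, so both Tas1r3 KO samples stood well above both WT samples. The log2 fold change was 1.27 (SE 0.20), with the smallest p of the region. It rested on about 116 reads in Tas1r3 KO and 121 in WT, and the counting interval of the ratio was 1.93 to 3.27. The summed muscle and myoid markers were lower in both Tas1r3 KO samples, with 0 of the 4 genes at an unadjusted limma p under 0.05. Whether cell composition had a part in the difference of Mxra8 was not tested. With precision weights in limma its adjusted p was 0.0225, and over all alternatives it ranged from 4.84e-07 to 1.

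On the other side of Tas1r3, Ints11, the RNA-cutting subunit of the Integrator complex, starts 10.3 kb after it. Ints11 was at 13.4 and 19.6 CPM in Tas1r3 KO, against 41.3 and 31.5 CPM in WT. The Tas1r3 KO samples were the lower pair, with a log2 fold change of -1.11 (SE 0.30). About 22 reads were behind the Tas1r3 KO values and 128 behind those of WT, which bounds the ratio at 0.273 to 0.711 by counting error alone. Its end overlaps 246 bases of Pusl1 on the other strand, and whether the counting used strand was not stated in the labels, so reads of the 2 genes there cannot be told apart.

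Ccnl2, a cyclin that acts in transcription and splicing, lies 46.8 kb before Tas1r3 and was at 29.9 and 26.9 CPM in Tas1r3 KO, below 39.1 and 45.9 CPM in WT (log2 fold change -0.56, SE 0.23). C1qtnf12, which encodes the secreted hormone adipolin, lies 103.0 kb after it and was at 26.7 and 15.1 CPM in Tas1r3 KO, above 6.84 and 8.85 CPM in WT (log2 fold change 1.26, SE 0.40).

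Dvl1, a relay of Wnt signalling whose last 36 bases overlap Tas1r3, was at 148.1 and 104 CPM in Tas1r3 KO and 150 and 159 CPM in WT, with a log2 fold change of -0.31 (SE 0.19). Cptp, a ceramide-1-phosphate transfer protein that starts 5.5 kb after Tas1r3, was at 232 and 219 CPM in Tas1r3 KO, above 182 and 187 CPM in WT, with a log2 fold change of 0.29 (SE 0.13). Pusl1, a pseudouridine synthase-like protein, was at 6.64 and 3.80 CPM in Tas1r3 KO and 2.59 and 0.55 CPM in WT. Ssu72, a phosphatase of RNA polymerase II, was at 19.0 and 23.3 CPM in Tas1r3 KO, below 27.5 and 34.5 CPM in WT. Mrpl20, a mitochondrial ribosomal protein, was at 76.1 and 73.6 CPM in Tas1r3 KO and 100.6 and 79.6 CPM in WT. Fndc10 and Tmem88b were also lower in both Tas1r3 KO samples, at under 6 CPM in every library. The values of Atad3a, Atad3aos, Vwa1, Aurkaip1, Acap3, Ube2j2, B3galt6, Sdf4 and an unnamed model overlapped between the genotypes.

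**Figure D3:**
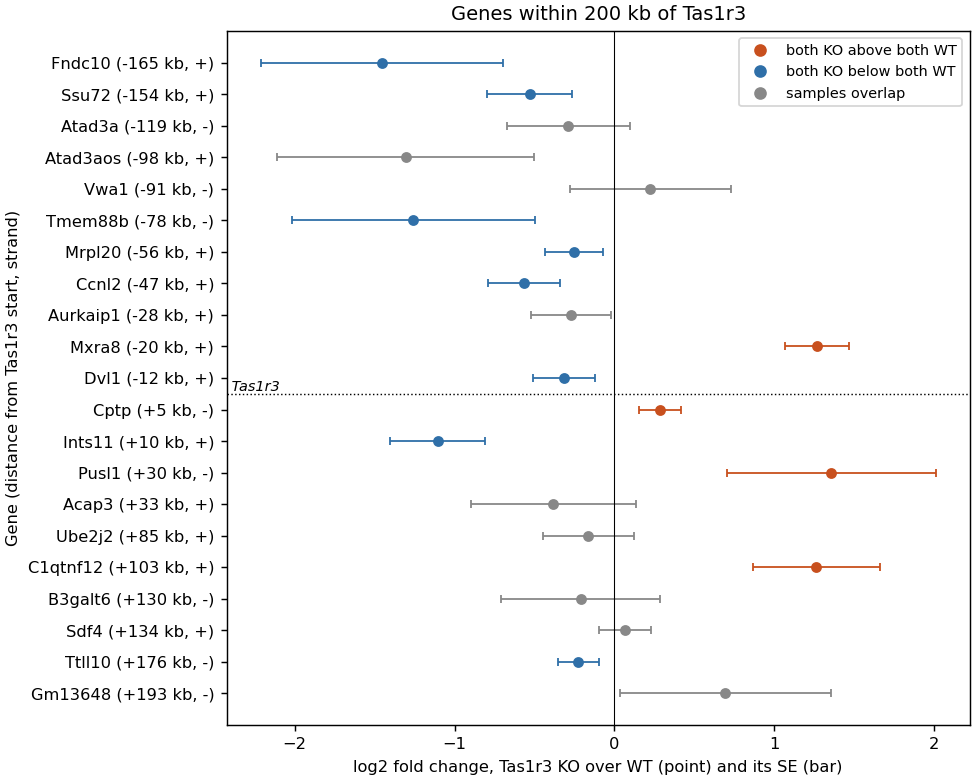
Log2 fold change of Tas1r3 KO over WT, with its standard error as a bar, computed on log2(CPM + 1) for 21 of the 22 members within 200 kb of Tas1r3, in order of position. Mxra8, at 1.27, and Ints11, at -1.11, lie on either side of Tas1r3 and have opposite signs.

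Of the 31 members with an unadjusted p under 0.05, 24 had a mean of at least 5 CPM, and 18 of these are named genes. Unnamed models made up 7 of the 31. Members of the signalling, receptor and channel list gave 5 of 27 tested (18.5%), 2 higher and 3 lower in Tas1r3 KO, with a median log2 fold change of -0.18. Mxra8 is among them. Kcnab2, a cytoplasmic beta subunit of Kv1 potassium channels with its start 3468.5 kb before Tas1r3, was at 36.4 and 29.3 CPM in Tas1r3 KO, against 62.3 and 62.7 CPM in WT. The Tas1r3 KO samples were lower by a log2 fold change of -0.92 (SE 0.21). About 45 reads in Tas1r3 KO and 220 in WT were behind these values. Kcnab2 overlaps Nphp4 on the other strand over 845 bases, where reads of these genes cannot be told apart without knowing whether the counting used strand. Clcn6, an exchanger of chloride and protons in late endosomes, was at 18.7 and 23.4 CPM in Tas1r3 KO, above 9.36 and 9.42 CPM in WT, by a log2 fold change of 1.08 (SE 0.33). Arhgef16, a guanine nucleotide exchange factor, was at 0 in both Tas1r3 KO libraries, against 5.23 and 2.24 CPM in WT. Its WT mean was 1.68 times a floor of 3 reads over both Tas1r3 KO libraries. The counting interval of the ratio of Tas1r3 KO to WT reached 0.859. Arhgef16 passed the filter on low values only through the WT libraries.

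In membrane traffic and protein turnover, 2 of 21 tested members (9.52%, against 4.69% of all genes) had such a p, both higher in Tas1r3 KO, and the list's median was 0.07. Vamp3, a vesicle SNARE of recycling endosomes, was at 81.5 and 68.6 CPM in Tas1r3 KO, above 42.8 and 45.2 CPM in WT, by a log2 fold change of 0.75 (SE 0.19). About 102 reads in Tas1r3 KO and 155 in WT gave this value. Dnajc11, a J-domain protein of mitochondrial membrane organisation, was at 40.1 and 40.1 CPM in Tas1r3 KO, above 25.5 and 29.6 CPM in WT (log2 fold change 0.53, SE 0.22). Fbxo2, an F-box protein that binds glycoproteins, was at 12.02 and 20.5 CPM in Tas1r3 KO and 26.3 and 26.6 CPM in WT, lower in both Tas1r3 KO samples but without such a p.

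In the transcription, chromatin and RNA list, 2 of 32 tested members (6.25%, near the 4.69% of all genes) had an unadjusted p under 0.05, Ints11 and Ccnl2, both lower in Tas1r3 KO. The list's median was -0.04. Rcc2, a regulator of chromosome condensation and Rac1, was at 88.2 and 61.9 CPM in Tas1r3 KO and 92.6 and 114 CPM in WT, with no overlap and no such p. Mitochondrial and metabolic genes gave 1 of 23 tested (4.35%), near the background, with a median of -0.14. Pink1, the kinase that marks damaged mitochondria, was at 202 and 149 CPM in Tas1r3 KO, below 233 and 221 CPM in WT, again without such a p. The centrosome, cilium and cytoskeleton list gave 1 of 15 (6.67%, near the 4.69% of all genes), Mad2l2, a subunit of DNA polymerase zeta, at 151 and 120 CPM in Tas1r3 KO and 173 and 180 CPM in WT (log2 fold change -0.39, SE 0.16). The 3 PRAME-like members, Pramel1, Pramel12 and Pramel13, overlapped between the genotypes.

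The other members with an unadjusted limma p under 0.05 and a mean of at least 5 CPM are in none of these lists, except for zinc finger genes given below. Ttc34, a tetratricopeptide repeat protein, was at 21.7 and 41.2 CPM in Tas1r3 KO and 11.3 and 18.7 CPM in WT (log2 fold change 0.99, SE 0.39). It overlaps an unnamed model on the other strand over 4293 bases. Smarca5-ps, a pseudogene of a chromatin remodeller, was at 29.8 and 29.7 CPM in Tas1r3 KO and 21.7 and 13.0 CPM in WT (log2 fold change 0.78, SE 0.31), and it may share reads with its parent gene. Slc25a34, of the mitochondrial carrier family, was at 6.68 and 9.43 CPM in Tas1r3 KO and 2.98 and 2.77 CPM in WT (log2 fold change 1.21, SE 0.49). These 3 were higher in both Tas1r3 KO samples. Gpr153, an orphan G protein-coupled receptor, was at 32.6 and 22.4 CPM in Tas1r3 KO, below 48.8 and 40.9 CPM in WT (log2 fold change -0.71, SE 0.26), and Dffa, the inhibitor of the caspase-activated DNase, was at 11.98 and 15.1 CPM in Tas1r3 KO, above 6.40 and 7.19 CPM in WT (log2 fold change 0.89, SE 0.39). At lower levels, Padi1, which converts arginine to citrulline in proteins, was at 2.73 and 7.61 CPM in Tas1r3 KO and 0.78 and 0.66 CPM in WT, and Dhrs3, a reductase of retinal, at 0.29 and 3.21 CPM in Tas1r3 KO and 6.72 and 8.51 CPM in WT. Prxl2b, a prostaglandin synthase, was at 1.34 and 3.34 CPM in Tas1r3 KO and 0 in both WT libraries. Its mean in Tas1r3 KO was 2.75 times a floor of 3 reads over both WT libraries. Both Tas1r3 KO values lie below what 3 reads were worth in those libraries. Padi1 and Prxl2b passed the filter on low values only through the Tas1r3 KO libraries, so a difference was built into their selection.

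For Gpr153 and Dffa the difference lay in 1 of their 2 listed transcripts. The shorter Gpr153 transcript was at 1.495 and 1.47 CPM in Tas1r3 KO, against 20.9 and 22.8 CPM in WT, while the longer was at 31.1 and 20.95 CPM in Tas1r3 KO and 27.9 and 18.1 CPM in WT. For Dffa, the noncoding transcript was at 6.30 and 7.76 CPM in Tas1r3 KO and at about 0 in WT, and the coding transcript at 5.68 and 7.29 CPM in Tas1r3 KO and 6.40 and 7.19 CPM in WT. Transcripts of a gene overlap, so the division of reads between them is an estimate of the authors' counting.

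**Figure D4:**
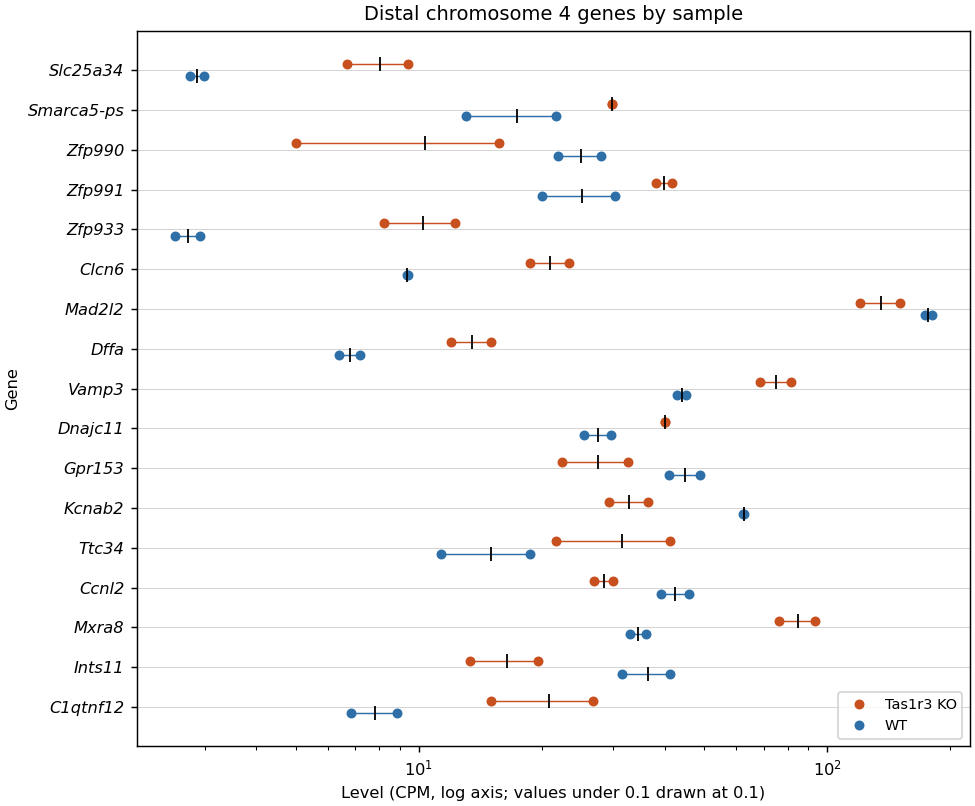
Level (x axis, CPM, log scale) of 17 named members with an unadjusted p under 0.05 and a mean of at least 5 CPM in each of the 2 Tas1r3 KO and 2 WT samples (points, joined by a line), with the mean of a genotype as a tick. In Mxra8, Vamp3 and Clcn6 both Tas1r3 KO points lie above both WT points, and in Kcnab2, Ints11 and Gpr153 below.

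Of the role lists, the zinc finger genes of the region had the widest differences, with a median absolute log2 fold change of 1.00. Of 13 tested, 4 (30.8%) had an unadjusted p under 0.05, 3 higher and 1 lower in Tas1r3 KO. At least 2-fold differences without overlap were found for 8 (61.5%, against 6.86% of all genes), and the genotypes did not overlap for 10 (76.9%, against 34.4%), 6 higher and 4 lower. The share of 2-fold differences depends on level, with 18.7% of all genes below a mean of 5 CPM and 2.35% of those at 5 CPM or more. Of 337 zinc finger genes elsewhere in the genome with a Zfp symbol, 14 (4.15%) had such a p and 35.3% did not overlap. Without the 13 genes the distal share was 27 of 244 (11.1%). Levels were low, with a median of 5.07 CPM over the 13 genes, and all but Zfp46 start between 8036.3 and 10706.4 kb before Tas1r3.

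Zfp933 was at 8.22 and 12.3 CPM in Tas1r3 KO, above 2.91 and 2.54 CPM in WT (log2 fold change 1.57, SE 0.48), on about 13 reads in Tas1r3 KO and 10 in WT. Zfp982 was at 4.2 and 11.9 CPM in Tas1r3 KO and 1.62 and 1.66 CPM in WT (log2 fold change 1.63, SE 0.62). It rested on about 3 and 7 reads in the Tas1r3 KO libraries and 3 and 3 in WT, and each of its 2 listed transcripts overlapped between the genotypes. Zfp991 was at 41.7 and 38.1 CPM in Tas1r3 KO and 20.1 and 30.3 CPM in WT (log2 fold change 0.67, SE 0.27). Zfp990 went the other way, at 15.8 and 5.02 CPM in Tas1r3 KO and 21.99 and 28.0 CPM in WT (log2 fold change -1.36, SE 0.49). Without an unadjusted p under 0.05, Zfp979 was at 2.92 and 10.03 CPM in Tas1r3 KO and 2.13 and 1.40 CPM in WT, Rex2 at 2.59 and 1.93 CPM in Tas1r3 KO and 0 and 1.49 CPM in WT, and Znf41-ps at 32.9 and 57.7 CPM in Tas1r3 KO and 30.7 and 30.6 CPM in WT. Zfp981, at 2.02 and 2.70 CPM in Tas1r3 KO and 4.42 and 7.26 CPM in WT, was lower in both Tas1r3 KO samples, as were Zfp984 and Zfp978. Zfp46, Zfp992 and Zfp534 overlapped between the genotypes.

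**Figure D5:**
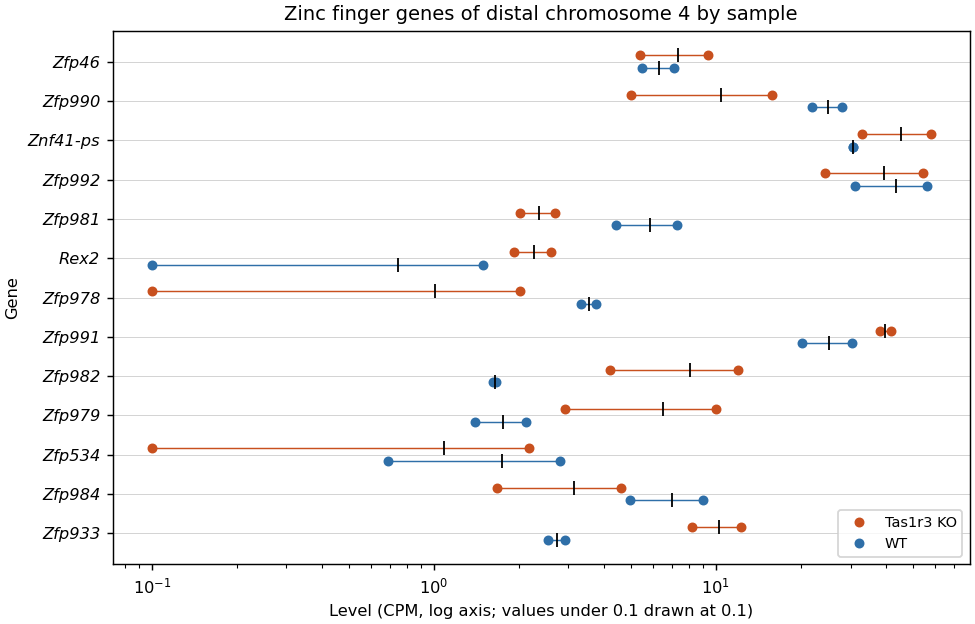
Level of the 13 zinc finger members (x axis, CPM, log scale, values under 0.1 drawn at 0.1) in each Tas1r3 KO and WT sample (points) with the mean of a genotype (tick), in order of position. Zfp933 and Zfp982, both on few reads, stand higher in both Tas1r3 KO samples and Zfp990 lower.

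The start windows of several of these genes are alike. RefSeq windows of 7 of the 13 were compared, with Zfp46 left out beforehand. Of the 21 pairs 14 were more than 70% identical, with a range of 56.7%, for a pair with Zfp933, to 96.7%. Where a gene had several windows, the one most like those of the other genes was taken, so the likeness was partly selected for. Windows were matched by symbol, and whether each is the start of a counted transcript was not tested. The stretches of 150 bases below are from the same GRCm38.p6 windows, at chr4:147021750-147021899 on the plus strand for Rex2, chr4:147642459-147642608 on the minus strand for Zfp979, chr4:147492317-147492466 on the plus strand for Zfp982 and chr4:147809739-147809888 on the minus strand for Zfp984. They are shown because 3 genes that were higher in both Tas1r3 KO samples and 1 that was lower in both have similar start windows. Of these only Zfp982 had an unadjusted limma p under 0.05, and Rex2 rested on about 3 reads in Tas1r3 KO and 3 in WT. Capitals mark bases that differ from the aligned base of the Zfp982 window.
Rex2: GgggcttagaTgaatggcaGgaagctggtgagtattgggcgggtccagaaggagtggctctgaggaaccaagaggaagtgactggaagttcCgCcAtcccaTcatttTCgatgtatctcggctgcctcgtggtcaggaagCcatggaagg
Zfp979: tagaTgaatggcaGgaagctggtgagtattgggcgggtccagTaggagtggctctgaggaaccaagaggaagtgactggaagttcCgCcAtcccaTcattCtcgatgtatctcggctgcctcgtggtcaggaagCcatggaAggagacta
Zfp982: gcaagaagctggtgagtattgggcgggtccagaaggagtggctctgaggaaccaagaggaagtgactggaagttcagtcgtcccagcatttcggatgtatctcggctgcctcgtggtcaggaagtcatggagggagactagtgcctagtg
Zfp984: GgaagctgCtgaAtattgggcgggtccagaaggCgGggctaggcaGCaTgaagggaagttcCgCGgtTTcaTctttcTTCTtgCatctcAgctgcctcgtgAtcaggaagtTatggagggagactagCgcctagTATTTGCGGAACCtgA
Rex2 and Zfp979 each carry 10 capitals and Zfp984 carries 37. Over the whole 300 bases Rex2 and Zfp979 were 96.7% identical, Zfp982 and Zfp979 89.7%, and Zfp982 and Zfp984 78.7%. The transcripts of Zfp978 and Zfp991 overlap over 48488 bases on the same strand. Whether reads were shared between these genes was not tested.

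Genes that start head to head were looked at because Cptp and Ints11 lie in this arrangement. The region has 16 pairs of members on opposite strands whose starts lie within 1000 bases of each other. In 11 pairs (68.8%) the fold changes had opposite signs, against 46.6% of the 1430 such pairs among all tested genes. In 3 pairs (18.8%), Cptp and Ints11 among them, both genes separated the genotypes without overlap in opposite directions, against 5.59% of all such pairs. In 0 of the 16 pairs did both separate in the same direction, against 5.94% of all such pairs. With 16 pairs, 1 of them the reason for looking, nothing is read from these shares. Ints11 and Cptp, 125 bases apart, are the pair nearest Tas1r3. Nmnat1, which makes NAD in the nucleus, was at 20.04 and 23.4 CPM in Tas1r3 KO, below 34.9 and 28.5 CPM in WT, and Lzic, which starts 17 bases away, was at 36.1 and 41.8 CPM in Tas1r3 KO, above 30.8 and 28.8 CPM in WT. Mrto4, a ribosome assembly factor, was at 72.7 and 73.6 CPM in Tas1r3 KO and 77.3 and 77.9 CPM in WT, while Emc1, of the membrane protein insertion complex, 9 bases away, was at 20.04 and 27.4 CPM in Tas1r3 KO and 18.7 and 15.9 CPM in WT. Lzic, Mrto4 and Emc1 were picked after their values were seen. Overlaps with another listed gene were found for 41 members, 5 of them among the 31 with an unadjusted p under 0.05.

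Kcnab2 was listed with 5 transcripts from 3 starts. The outermost start, whose window is printed above, was given 34.9% and 34.9% of the gene's level in Tas1r3 KO and 40.7% and 55.7% in WT. The division was the same to this precision in both Tas1r3 KO libraries, and the transcripts of the outermost start, like those of both inner starts, divided their sum in the same shares in every library, so these shares are estimates of the authors' counting and no start usage is read from them.

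Few partners of Ints11, Vamp3 and Kcnab2 had an unadjusted p under 0.05. Of 15 tested Integrator subunits, Ints11 alone had an unadjusted limma p under 0.05 (6.67%, against 4.69% of all genes), and the median log2 fold change was -0.09. Ints4, which had the next smallest p, was at 50.8 and 43.5 CPM in Tas1r3 KO and 40.8 and 37.7 CPM in WT. Of 11 tested VAMP proteins and partner SNAREs, Vamp3 was higher and Vamp1 lower with such a p (18.2%), and the median was 0.12. Vamp1 had 0 estimated reads in both Tas1r3 KO libraries and 5.37 and 2.20 CPM in WT. Its WT mean was 1.70 times the floor of 3 reads over both Tas1r3 KO libraries. The counting interval of the ratio of Tas1r3 KO to WT reached 0.859. Vamp1 passed the filter only through the WT libraries. Of 10 tested Kv1 channel subunits, Kcnab2 alone had such a p (10%), with a median of -0.28. Kcnab1, a further beta subunit and the next by p, was at 9.35 and 13.4 CPM in Tas1r3 KO, above 4.09 and 6.42 CPM in WT.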

How the data were processed

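Expression in testis was measured in 2 Tas1r3 KO and 2 WT samples, grouped by their titles. Per the labels' protocols, total RNA was made into libraries with an Ion Torrent total RNA kit. Alignment and quantification used STAR, Partek and mm39 per the submitters' processing notes, with versions and settings not given in the sources used here. In the deposited tables the authors give each RefSeq transcript in CPM, so that a library sums to 1000000, and the sample tables and the series table held identical values in 4 of 4 columns. Positions are those of the deposited table; sequences come from RefSeq windows of GRCm38.p6 and were matched by symbol.

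Transcripts were summed per symbol. A gene had to reach 1 CPM in 2 or more libraries. The test was that of limma 3.58.1 (R 4.3.3), applied to log2 values of CPM with a pseudocount of 1, with a mean trend and Benjamini-Hochberg adjustment at 0.05 over all 17745 genes. Fold changes on this scale understate those of low genes. The commonest step between low values was taken as 1 read. Because reads had been divided between transcripts, whole counts were not recovered, read numbers are rounded estimates, and no count test was used. Ratio intervals (95%, exact conditional) and floors of 3 reads cover counting error only. Permuting 2 against 2 samples allows no two-sided p under 0.333, and this was not done. The procedure was tested on simulated data.

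The members, role lists and family lists were chosen with earlier results of these data known. Named genes are the 4 markers; members with an unadjusted p under 0.05, genotypes apart and at least 5 CPM on average, up to 20; the 10 with the highest mean CPM; those within 200 kb of Tas1r3; up to 3 per role list with the smallest p; 2 on each side of the boundary; and 2 per family list. Genes named beside these because they overlap or start next to a named gene, or fill out a list, were chosen after their values were seen. Genes that the rules select beyond those named are counted and not reported here. Alternatives covered the pseudocount, the filter, the scaling, the trend, precision weights, transcripts in place of genes, the width of the region, the replicate number as a block and each sample left out. Python 3.11.15 with pandas 2.3.3, numpy 2.4.6, scipy 1.17.1 and matplotlib 3.10.9 handled the tables and figures.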

Additional observations from a re-analysis of the deposited data

How the results depend on the processing

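The share of distal members with an unadjusted limma p under 0.05 was 11.3% with a pseudocount of 0.1 or of 5, 11.1% with no filter, 13.0% with a minimum of 5 CPM, 12.1% after trimmed mean of M values scaling, 12.8% after quantile normalization, 8.95% without the mean trend and 12.5% with precision weights. It was 12.6% without the members within 1 Mb of Tas1r3. Over transcripts it was 9.28%, with 6.48% on the rest of chromosome 4 and a median log2 fold change of -0.12. With 1 sample left out the share ranged from 3.5% to 30.0%, that on the rest of chromosome 4 from 1.42% to 21.2%, the count of members with an adjusted p under 0.05 from 0 to 39, and the median log2 fold change from -0.086 to 0.04. In those fits the lone sample of a genotype is assumed to vary like the other genotype. Precision weights gave 1 member with an adjusted p under 0.05, Mxra8. With the replicate number as a block the share was 13.2%, and 1 member passed, again Mxra8 (adjusted p = 0.000631), of 23 genes in all. Same-numbered samples did not deviate together (correlation -0.005 over 17745 genes). This does not exclude a link between them, and the sample titles give only the numbers. Of 684 alternative values for 53 named genes, 637 kept their sign and side of the threshold, 28 passed it and 19 changed sign. All 19 came from leaving out 1 sample, where the log2 fold changes ranged as follows: Slc2a5 -0.32 to 0.048, Ubr4 -0.12 to 0.48, Eif4g3 -0.17 to 0.049, Fhad1 -0.20 to 0.012, Luzp1 -0.22 to 0.074, Atad3a -0.66 to 0.09, Vwa1 -0.50 to 0.95; Aurkaip1 -0.63 to 0.095, Acap3 -1.15 to 0.39, Ube2j2 -0.53 to 0.20, B3galt6 -0.69 to 0.27, Sdf4 -0.054 to 0.19, Pramel13 -1.21 to 0.28, E2f2 -2.37 to 0.092, Asap3 -0.53 to 0.052. The causes were not tested. At the depth reached, 3 reads in a Tas1r3 KO library were worth 4.01 to 5.02 CPM.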
